A study of Mus musculus with 9 samples.

Results

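The proteasome is the protease of the cytosol and nucleus that degrades ubiquitin-tagged proteins, and its genes in mouse carry symbols of a single series, Psma to Psmg followed by a number. All 48 genes of that series in the deposited annotation, of 55421 genes in all, were followed across CD8+ T cells that had or had not taken up mitochondria from stromal cells. Psmb8, Psmb9, Psmb10, Psme1 and Psme2, the 5 genes of the immunoproteasome, were set apart from the other 43.

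All T cells were isolated from spleen of Pmel Ly5.1 animals, a cross of a strain with a transgenic T-cell receptor and a strain with the Ly5.1 (CD45.1) allele. MitoPositive cells had spent 36 h with DM5, an immortalized mesenchymal stromal line from the bone marrow of BL6 mice whose mitochondria were labelled with the red fluorescent protein DsRed, and were sorted as CD8+ and DsRed-positive. MitoNegative cells came from the same kind of 36 h co-culture and were sorted as DsRed-negative. Monoculture cells were cultured without stromal cells. The titles of all 9 samples also carry the time 0hr, which the labels do not explain beside the 36 h of the protocol. Each group had 3 libraries of ribosomal RNA-depleted total RNA, with the replicate letters B, C and D in every group, and values are given in that order below. The labels do not say whether the letters mark separate animals or cultures, and p-values cover only how these libraries vary, a spread that could be technical. The stromal cells were 1 line, and a DsRed signal marks T cells by their fluorescence at the sort and not by a measured amount of transferred mitochondria.

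The 9 libraries held 53546152 to 74722832 counts. Monoculture replicate D stood apart from the other libraries, with the lowest scaling factor, 0.943 against up to 1.02, and the largest difference from a replicate of its own group. Markers of CD8+ T cells, among them Cd8a and the CD3 chains, summed to 4390 to 4619 CPM (counts scaled to a common library size) in MitoPositive, 4361 to 4703 CPM in MitoNegative and 4924 to 5792 CPM in monoculture libraries, and none was at 0. Stromal markers without Thy1, which T cells also express, summed to at least 7.52 CPM in MitoPositive and 7.19 CPM in MitoNegative libraries and to at most 20.7 CPM in either, against 0.541 to 1.01 CPM in monoculture libraries, where 9 of these 11 markers were at 0. B cell markers summed to 277 to 308 CPM in MitoPositive, 365 to 459 CPM in MitoNegative and 680 to 752 CPM in monoculture libraries, and markers of myeloid and dendritic cells to 50.3 to 70.9, 48.2 to 74.5 and 106 to 162 CPM in the same order of groups, with Siglech at 0 in all 3. Markers of CD4 T and natural killer cells summed to 8.91 to 11.3, 12.5 to 18.9 and 17.3 to 28.0 CPM in that order. Against monoculture, 22.3% of all genes rose and 19.9% fell in MitoPositive cells, and 20.6% rose and 18.3% fell in MitoNegative cells. Of the markers, 8 of 10 measured stromal ones rose and 6 of 8 B cell ones fell in MitoPositive and in MitoNegative cells. Of the 8 CD8 T markers 6 fell in MitoPositive and 7 in MitoNegative cells, and of 11 myeloid and dendritic markers 4 fell in each while 2 and 1 rose. Of 5 markers of CD4 T and natural killer cells 4 fell in MitoPositive and 1 in MitoNegative cells, and between MitoPositive and MitoNegative cells Ighm, a B cell marker, was the only call of all these lists in the fit of all 9 libraries. In that fit 0.165% of all genes passed between these groups. The replicate block added 1 CD8 T marker and 1 marker of CD4 T and natural killer cells, both lower, where 1.08% of all genes were lower. The fit of only these groups with the block called 3 of 5 markers of CD4 T and natural killer cells lower and 1 CD8 T marker higher and 2 lower. It also called 1 stromal marker higher, 1 B cell marker lower and 1 myeloid and dendritic marker lower. By that fit 9.92% of all genes were higher and 8.29% lower. The part of these markers in the differences from monoculture reported below was not tested. In such bulk samples fewer cells of a type and less RNA per cell cannot be told apart.

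The proteasome has a barrel-shaped core particle of stacked rings of alpha and beta subunits, with the proteolytic sites on 3 of the beta subunits, Psmb5, Psmb6 and Psmb7. A regulatory particle made of Psmc ATPases and Psmd subunits caps the core, binds ubiquitin chains and unfolds the substrate. Interferon gamma induces Psmb8, Psmb9 and Psmb10, which replace the constitutive catalytic subunits in newly assembled cores, and the activator pair Psme1 and Psme2, and the resulting immunoproteasome makes many of the peptides that MHC class I molecules present. Lymphocytes express the immunoproteasome constitutively, and T cells need proteasome activity through activation and proliferation.

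Psmb9 and Psmb8 lie close together within the MHC region. In the deposited coordinates (GRCm38) Psmb9 spans chr17:34181987-34187764 on the minus strand and Psmb8 spans chr17:34197721-34201454 on the plus strand. Tap1, a chain of the peptide transporter into the endoplasmic reticulum, starts inside the span of Psmb9, on the plus strand. The starts of Psmb9 and Tap1 are 211 bases apart, and the genes overlap. Psme1 (chr14:55578123-55581529, plus strand) and Psme2 (chr14:55587441-55591113, minus strand) face each other. The promoter windows of Psmb9, Psmb8 and Psme1 are shown because Psmb9 and Psme1 were called in the comparisons below and Psmb8, the neighbour of Psmb9, was not. The windows are those of RefSeq on GRCm38.p6, 250 bases before to 50 bases after its gene start. They lie at chr17:34187281-34187580 (minus strand) for Psmb9, chr17:34197945-34198244 (plus strand) for Psmb8 and chr14:55578244-55578543 (plus strand) for Psme1. Each window is inside the deposited span of its gene, downstream of the deposited start, so the sequence before that start was not searched. The windows are printed 5′ to 3′ with matches to the motifs searched in capitals.
Psmb9: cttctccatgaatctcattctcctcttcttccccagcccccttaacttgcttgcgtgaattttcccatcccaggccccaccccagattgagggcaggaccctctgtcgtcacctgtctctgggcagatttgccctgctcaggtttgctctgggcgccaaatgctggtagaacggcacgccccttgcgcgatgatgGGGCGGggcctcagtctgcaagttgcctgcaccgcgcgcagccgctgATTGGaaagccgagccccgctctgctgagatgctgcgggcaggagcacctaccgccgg
Psmb8: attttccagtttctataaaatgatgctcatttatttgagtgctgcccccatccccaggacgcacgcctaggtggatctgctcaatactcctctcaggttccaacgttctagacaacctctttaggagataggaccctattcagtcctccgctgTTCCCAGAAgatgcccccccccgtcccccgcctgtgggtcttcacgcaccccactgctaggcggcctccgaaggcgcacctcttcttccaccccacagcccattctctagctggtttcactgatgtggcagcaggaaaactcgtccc
Psme1: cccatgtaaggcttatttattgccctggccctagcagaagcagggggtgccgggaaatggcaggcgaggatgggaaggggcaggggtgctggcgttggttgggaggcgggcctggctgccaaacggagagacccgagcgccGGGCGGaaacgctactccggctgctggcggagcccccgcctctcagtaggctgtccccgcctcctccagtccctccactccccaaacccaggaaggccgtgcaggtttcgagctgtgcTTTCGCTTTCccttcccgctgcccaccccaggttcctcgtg
The capitals in Psmb9 mark a GC box (GGGCGG, positions 196 to 201, counted from 1 at the 5′ end of the window) and a CCAAT box on the opposite strand (ATTGG, 243 to 247). Those in Psmb8 mark a match to the GAS motif, the interferon gamma-activated site TTCNNNGAA, at 154 to 162. Those in Psme1 mark a GC box at 142 to 147 and, at 260 to 269, a reversed match to the ISRE, the motif of interferon regulatory factors. The window of Tap1 overlaps that of Psmb9 on the other strand and holds the same GC and CCAAT boxes. Among 43 windows of the 40 members with an entry, 3 held the GAS motif, 5 the ISRE, 6 the ARE core TGACNNNGC of NRF1 and NRF2, 14 a CCAAT box, 24 a GC box and 0 the kappaB motif, on either strand. Of all 32851 windows 8.3%, 3.44%, 12.4%, 37.4%, 35.7% and 0.411% held these motifs in the same order. A match of letters is a description of the window and not a measured site.

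Summed over all 48 genes, the proteasome took about the same part of the RNA in all 3 conditions. Levels were scaled by TMM, which corrects each library for its composition, and given as CPM or, to compare genes, as CPM per kilobase of annotated exon (RPKM). The 48 genes summed to 6234, 6195 and 5836 CPM in MitoPositive, 6341, 6142 and 5609 CPM in MitoNegative and 5844, 5949.9 and 6531 CPM in monoculture libraries. The means of 6088 ± 219, 6031 ± 378 and 6108 ± 370 CPM (SD, n = 3 each) differed by less than the spread between replicates. The 5 immunoproteasome genes summed to 1773 ± 58.3 CPM in MitoPositive, 1864 ± 152 CPM in MitoNegative and 1711 ± 105 CPM in monoculture libraries. The MitoPositive range lay within the MitoNegative range, and the co-culture ranges overlapped that of monoculture only through monoculture D. The monoculture sums were 1637, 1664 and 1831 CPM, and the lowest co-culture sums 1718 CPM in MitoPositive and 1703 CPM in MitoNegative libraries. Without monoculture D, all 5 log2 fold changes were positive in MitoNegative cells (median 0.16) and 3 of 5 in MitoPositive cells (median 0.18). The median over all genes was then 0.02 in each.

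By level, 3 of the 5 immunoproteasome genes were the highest of the set. Averaged over the 9 libraries, Psme1, Psmb8 and Psme2 had 212, 184 and 163 RPKM, above every other member. Psma6, an alpha subunit, followed with 109.6 RPKM, Psmb4, a structural beta subunit, with 98.9 RPKM, Psma5 with 94.0 RPKM and Psmb10 with 89.5 RPKM. Psmb9, the lowest of the 5, had 69.1 RPKM, below Psmd2, Psmc1 and the constitutive Psmb5 (71.8 RPKM). The 7 measured alpha subunits ranged from 26.4 RPKM for Psma3 to that of Psma6, and the 7 constitutive beta subunits from 31.1 RPKM for Psmb7 to that of Psmb4. The 6 ATPases of the regulatory particle ranged from 21.6 RPKM for Psmc2 to 73.5 RPKM for Psmc1, and its 11 non-ATPase subunits from 10.7 RPKM for Psmd1 to 73.6 RPKM for Psmd2. The 7 assembly factors ranged from 2.69 RPKM for Psmg3, a chaperone of core assembly, over 3.73 RPKM for Psmd9 and 6.93 RPKM for Psmd5, to 32.7 RPKM for Psmg4 and 39.4 RPKM for Psmd10, within the range of the subunits. Exon length counts every annotated exon base, so the level of a gene with long exons that are little used is understated.

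A pair of members was below the filter on low counts and has no test among the 46. Psmb11, the beta subunit of the thymus-specific proteasome, had 0 counts in all 9 libraries, which allows up to 0.0402 to 0.056 CPM per library at 3 counts. Psma8, the alpha subunit of the testis proteasome, had 4 to 7 counts per library in MitoPositive, 3 to 16 in MitoNegative and 1 to 2 in monoculture cells. Without the filter Psma8 passed between MitoNegative and monoculture cells (adjusted p = 0.0167, edgeR), a call that rests on these few counts.

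**Figure D1:**
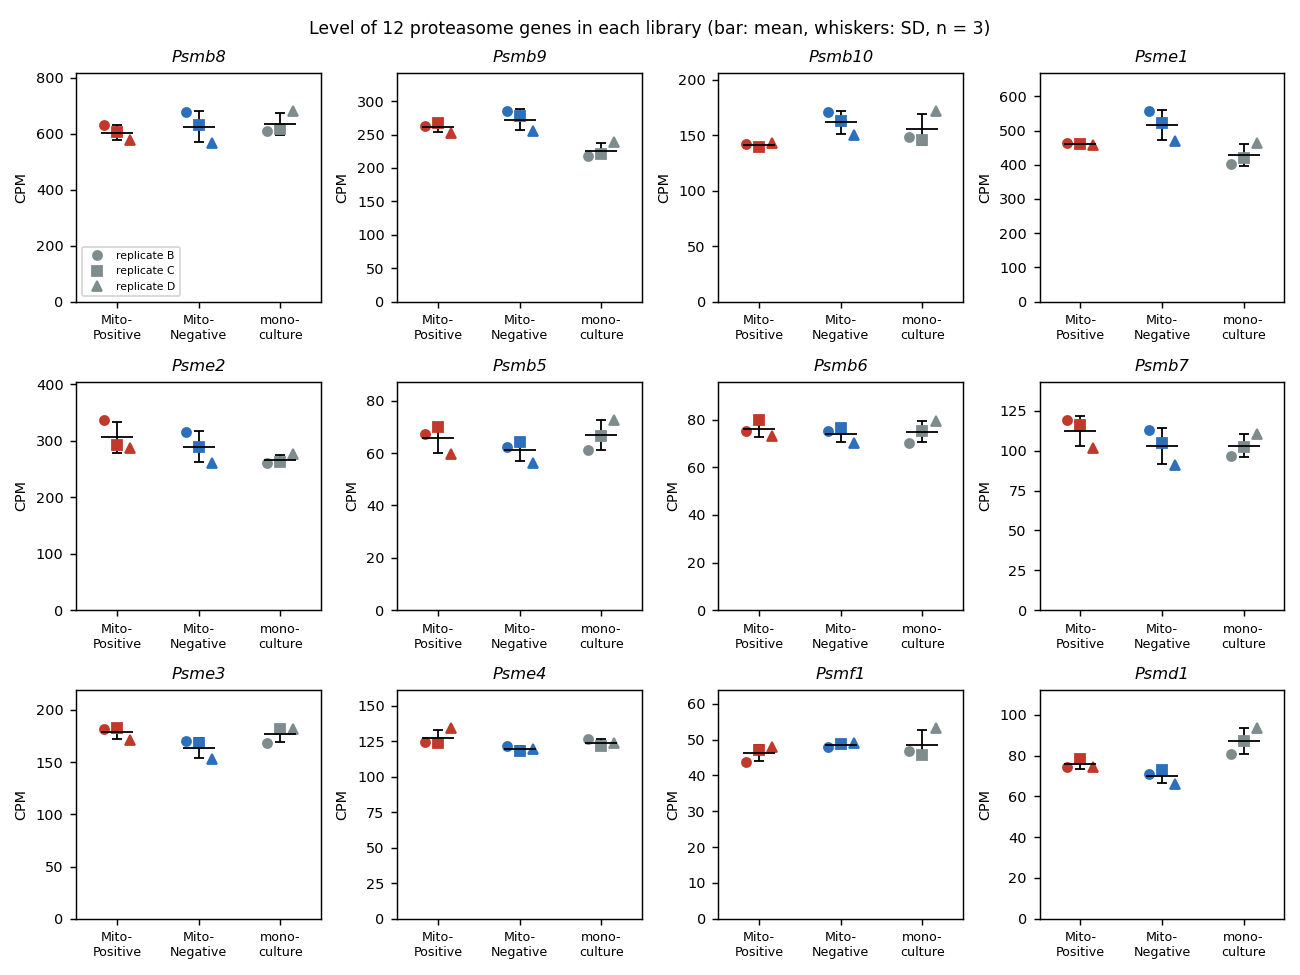
CPM of 12 proteasome genes in each library, from left to right MitoPositive, MitoNegative and monoculture, with circles, squares and triangles for replicates B, C and D, horizontal bars for means and whiskers for SD (n = 3 each), on axes that start at 0. Psmb9 is above and Psmd1 below monoculture in all 6 co-culture libraries, while Psmb8, Psmb5, Psmb6 and Psmb7 overlap between the 3 groups.

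MitoPositive and MitoNegative cells gave no call on any proteasome gene in the fit of all 9 libraries. A fit of only their 6 libraries with the replicate letter as a block called 16, as given below. Of the 46 measured members 0 passed at an adjusted p of 0.05 by edgeR's quasi-likelihood test over 15711 genes, where 26 genes, 0.165%, passed in all, 0.0891% higher and 0.0764% lower. DESeq2 and limma voom also called 0 members, where 3.22% and 0.21% of all genes passed. By edgeR 3 members had an unadjusted p under 0.05, as had 1646 of the 15711 genes. The log2 fold changes ran from -0.24 to 0.13 with a median of 0.04, against -0.00038 over all genes. Of the members 35 were positive and 11 negative, so 76.1% were positive, against 49.9% of all genes. The 95% intervals of all 46 lay within 0.5 on either side of 0, so a difference past that size lies outside the interval of each.

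The members nearest to a difference were Psmb10, Psmg4 and Psma1. Psmb10, which replaces Psmb7 as the trypsin-like site, had 142, 139.5 and 143 CPM in MitoPositive against 171, 163 and 150.3 CPM in MitoNegative libraries. The groups do not overlap, but the difference of -0.19 ± 0.07 (log2, SE) had an adjusted p of 0.363. Psmg4, a chaperone of core assembly, had 16.7, 18.8 and 16.1 CPM in MitoPositive and 20.8, 21.6 and 18.3 CPM in MitoNegative libraries (log2 fold change -0.24, adjusted p = 0.363, edgeR). Psma1 had 134, 136 and 132 CPM in MitoPositive and 124, 125 and 119 CPM in MitoNegative libraries, with no overlap and an adjusted p of 0.471 by the same test. In all, 7 members were higher and 5 lower without overlap between the groups, where 10.5% and 9.55% of all genes were.

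Replicate letters paired these libraries (residuals of the same letter correlated by 0.339 to 0.459), and a fit of only these 6 libraries with the letter as a replicate block gave another count. It called 16 of the 46 members, 34.8%, against 18.2% of all genes, and it rests on 2 residual degrees of freedom. Markers of other cell types called by the same fit are given above, and their part in these calls was not tested. Higher in MitoPositive cells by that fit were 12 members, 26.1% against 9.92% of all genes: the alpha subunits Psma1, Psma3 and Psma5, the beta subunits Psmb2, Psmb4, Psmb5 and Psmb7, the regulatory subunits Psmc1, Psmd1, Psmd6 and Psmd13, and Psme3. Lower were 4 members, 8.7% against 8.29%: Psmb10, Psme1, Psmd5 and Psmg4. Their sizes stayed small, with the constitutive catalytic Psmb5 at 0.11 (adjusted p = 0.03), Psmb7 at 0.13 (adjusted p = 0.0106), Psmb10 at -0.18 (adjusted p = 0.00306) and Psme1 at -0.16 (adjusted p = 0.0142), all on the log2 scale by edgeR. The replicate block in the fit of all 9 libraries called 0 members and 367 genes (1.26% of all genes higher and 1.08% lower).

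**Figure D2:**
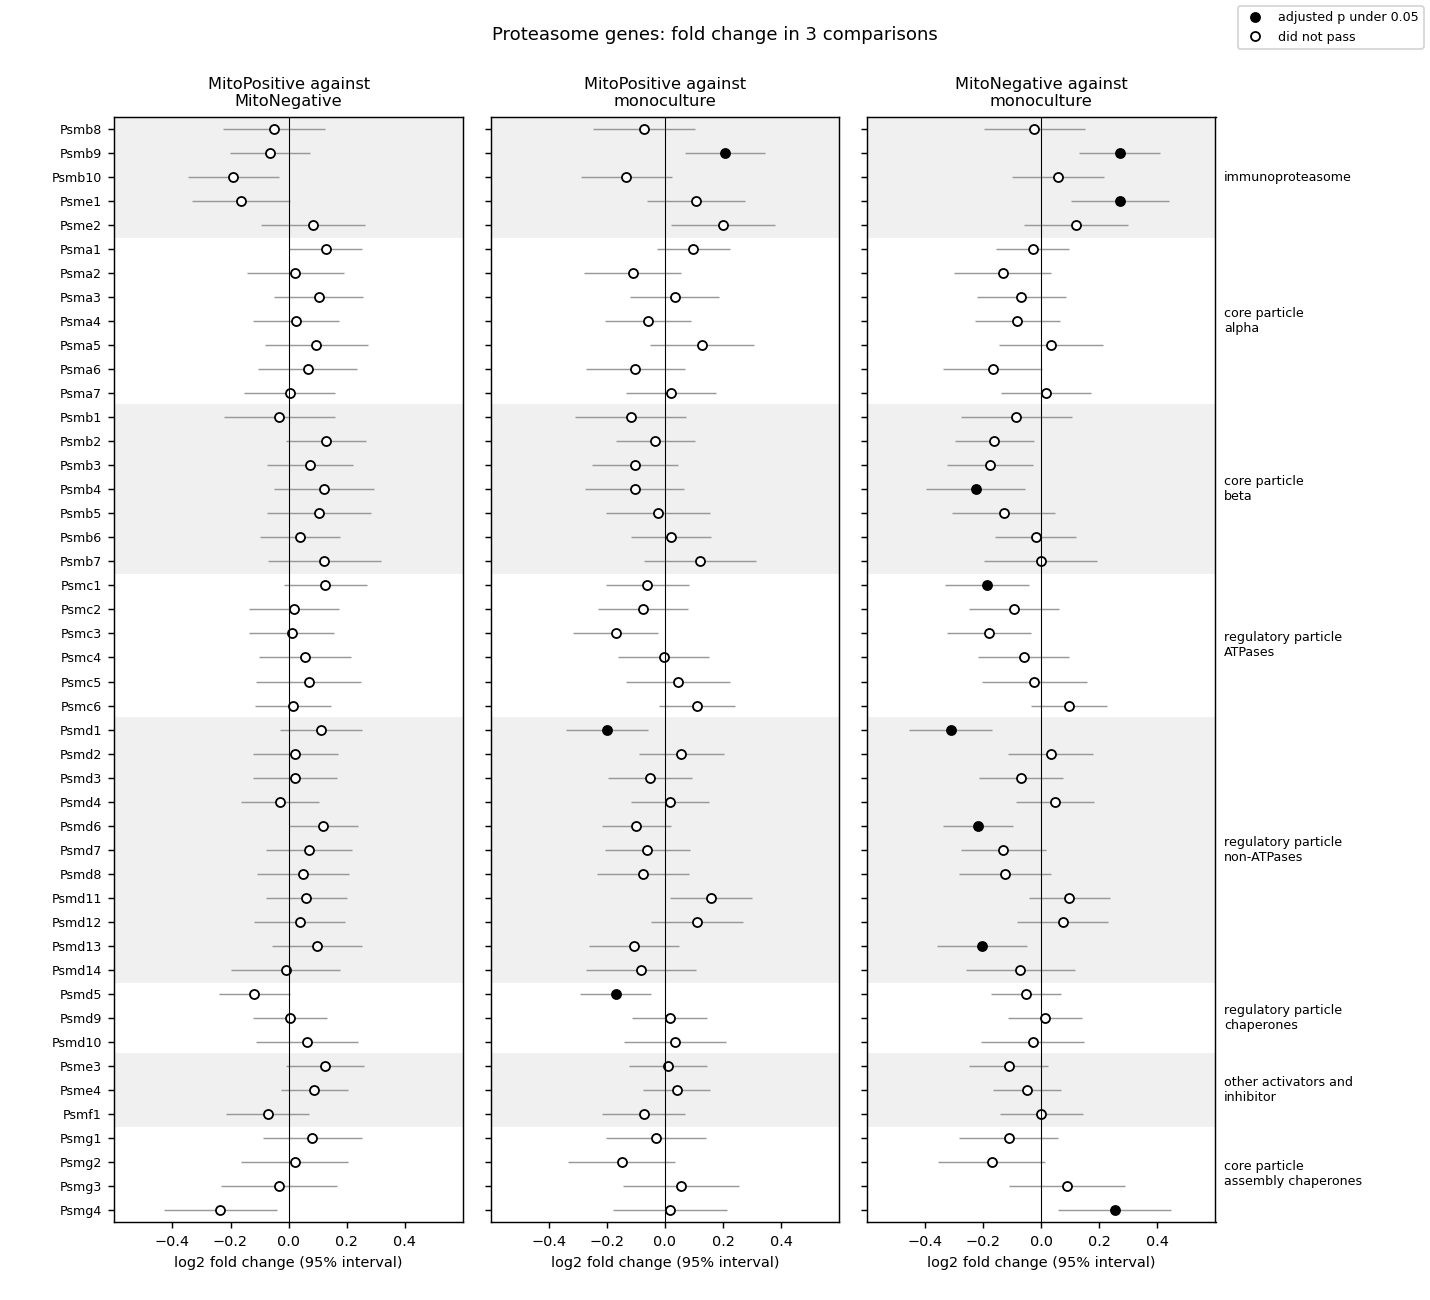
Log2 fold change (points) with 95% interval (lines) of the 46 measured members by edgeR, grouped by their place in the proteasome, for MitoPositive against MitoNegative, MitoPositive against monoculture and MitoNegative against monoculture cells from left to right. Filled points passed at an adjusted p of 0.05, which were 0, 3 and 8 members, and all intervals lie within 0.5 on either side of 0.

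Against monoculture, the proteasome genes gave few calls and small differences, while 6637 and 6110 genes passed in all. The comparisons share the monoculture libraries and so are given side by side. Of all genes 42.2% passed between MitoPositive and monoculture cells, and 3 of the 46 members did, 6.52%, with 1 higher and 2 lower where 22.3% of all genes were higher and 19.9% lower. Between MitoNegative and monoculture cells 38.9% of all genes passed, and 8 members did, 17.4%, with 3 higher and 5 lower where 20.6% of all genes were higher and 18.3% lower. With the replicate block 2 members were higher and 3 lower in MitoPositive cells, where 24.8% and 23% of all genes were, and 3 were higher and 6 lower in MitoNegative cells, where 23.5% and 21.5% of all genes were. The median absolute log2 fold change of the members was 0.08 and 0.09 in these comparisons, and that of all genes 0.29 and 0.27. Log2 fold changes within 0.2 on either side of 0 were seen for 93.5% and 84.8% of the members, and for 37.8% and 39.7% of all genes. Among the 8744 genes whose mean level lay within the members' range, from 7.78 to 621 CPM, 48.8% and 51.3% were that close to 0 and 49.2% and 45.9% passed.

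The immunoproteasome gene that rose in both comparisons was Psmb9, the catalytic subunit also called LMP2. It had 262, 267 and 252 CPM in MitoPositive and 285, 277 and 255 CPM in MitoNegative libraries, against 218.0, 220.3 and 239 CPM in monoculture libraries. Every co-culture library was above every monoculture library. The log2 fold change was 0.21 ± 0.06 (SE) in MitoPositive cells (adjusted p = 0.0208) and 0.27 ± 0.06 in MitoNegative cells (adjusted p = 0.00544, edgeR), a level 15.3% and 20.6% above that of monoculture. The call in MitoNegative cells was kept in 17 of 17 alternatives. That in MitoPositive cells was lost without MitoPositive B, monoculture B, MitoPositive C or monoculture C (adjusted p = 0.0592 to 0.0789), and without monoculture D, which stood apart, the values were 0.26 in MitoPositive and 0.32 in MitoNegative cells (adjusted p = 0.00599 and 0.00214). Psmb9 shares 212 exon bases, 5.79% of its exons, with Tap1 on the opposite strand. The strand setting of the counting is not known from the labels, and without strand the reads of that stretch cannot be told apart from those of Tap1.

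Psmb8, or LMP7, its neighbour, gave no call. Psmb8 had 629, 606 and 577 CPM in MitoPositive and 677, 632 and 566 CPM in MitoNegative libraries, against 609, 616 and 680 CPM in monoculture libraries, and the 3 groups overlap. The log2 fold changes against monoculture were -0.07 and -0.02 (adjusted p = 0.5 and 0.845, edgeR), with 95% intervals of -0.25 to 0.10 in MitoPositive and -0.20 to 0.15 in MitoNegative cells. Psmb10 did not pass either, at log2 fold changes of -0.13 in MitoPositive and 0.06 in MitoNegative cells (adjusted p = 0.162 and 0.569, edgeR). Its monoculture libraries had 148, 146 and 171 CPM, which lie above those of all 3 MitoPositive libraries. The call of a rise in Psmb9 and none in Psmb8 or Psmb10 is no test of a difference between these genes.

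The activator genes Psme1 and Psme2, which form a ring that opens the core, gave 1 call. Psme1 had 463, 462 and 458 CPM in MitoPositive and 556, 522 and 470.1 CPM in MitoNegative libraries, against 401, 419 and 464 CPM in monoculture libraries. It rose in MitoNegative cells by 0.27 ± 0.08 (log2, SE, adjusted p = 0.016, edgeR), while the MitoPositive value, 0.11, had an adjusted p of 0.29. Without MitoNegative B, monoculture B or monoculture C, or in the fit of only these 2 groups with the replicate block, the call on Psme1 was lost (adjusted p = 0.0512 to 0.0624), and without monoculture D it was 0.34 (adjusted p = 0.00394). Psme2 had 337, 294 and 288 CPM in MitoPositive and 316, 289.8 and 262 CPM in MitoNegative libraries, against 261, 262 and 276 CPM in monoculture libraries. Its log2 fold change of 0.20 in MitoPositive cells missed the threshold (adjusted p = 0.0677, edgeR) although no MitoPositive library overlapped monoculture, and that of 0.12 in MitoNegative cells had an adjusted p of 0.281. In MitoPositive cells Psme2 passed in 7 of 17 alternatives (adjusted p = 0.0282 to 0.049), which were total counts, no filter, the replicate block, the fits of only these groups with and without the block, and the fits without MitoNegative B or MitoNegative D. Psme2b, a near-identical copy, held 26439 counts that may belong to Psme2. With them added the values became 0.16 and 0.09 (adjusted p = 0.161 and 0.447, edgeR).

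The constitutive counterparts gave no call against monoculture. Psmb5, the chymotrypsin-like site that Psmb8 replaces, had 67.3, 70.2 and 59.6 CPM in MitoPositive and 62.5, 64.3 and 56.3 CPM in MitoNegative libraries, against 61.3, 66.4 and 72.7 CPM in monoculture libraries. Psmb6, the caspase-like site that Psmb9 replaces, had 75.4, 80.0 and 73.1, then 75.5, 76.6 and 70.2, against 70.4, 75.3 and 79.6 CPM in the same order of groups. Psmb7, the counterpart of Psmb10, had 119, 116 and 101, then 113, 105 and 91.2, against 96.9, 102 and 111 CPM. All 3 genes overlap between the groups, with log2 fold changes of -0.13 to 0.12 and adjusted p-values of 0.235 to 0.986 by edgeR.

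The ratio of inducible to constitutive catalytic subunit within a library does not depend on library scaling. Per exon base, Psmb9 had 1.78, 1.71 and 1.77 times the counts of Psmb6 in MitoPositive and 1.93, 1.85 and 1.86 times in MitoNegative libraries, against 1.58, 1.496 and 1.54 times in monoculture libraries. The 3 groups do not overlap, with MitoNegative highest and monoculture lowest. The ratio of Psmb8 to Psmb5 was 2.45 ± 0.142 in MitoPositive, 2.72 ± 0.139 in MitoNegative and 2.53 ± 0.0964 in monoculture libraries (SD, n = 3 each), with overlap. The ratio of Psmb10 to Psmb7 was 2.54 ± 0.25 in MitoPositive, 3.15 ± 0.141 in MitoNegative and 3.01 ± 0.126 in monoculture libraries. It was 2.38, 2.41 and 2.83 in the single MitoPositive libraries, all below the lowest monoculture value of 2.87. Between inducible subunits, Psmb9 over Psmb8 was 0.399 ± 0.012 in MitoPositive and 0.403 ± 0.0143 in MitoNegative libraries, against 0.329 ± 0.00283 in monoculture libraries, and no co-culture library overlapped monoculture. These ratios were chosen with results of the data known and are given as a description with no p.

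**Figure D3:**
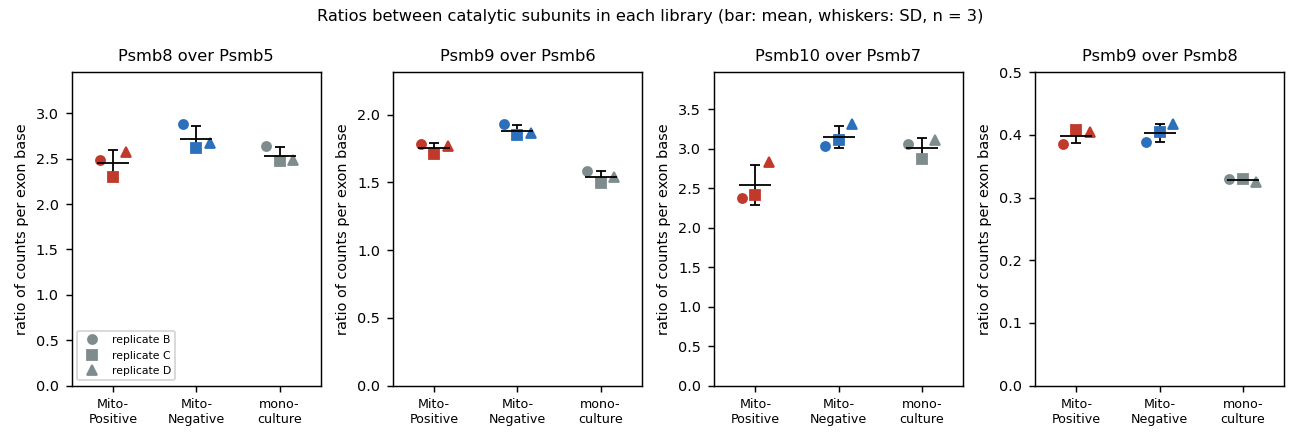
Ratio of counts per exon base of Psmb8 over Psmb5, Psmb9 over Psmb6, Psmb10 over Psmb7 and Psmb9 over Psmb8 in each library, from left to right MitoPositive, MitoNegative and monoculture, with circles, squares and triangles for replicates B, C and D, bars for means and whiskers for SD (n = 3 each). Psmb9 over Psmb6 is 1.75, 1.88 and 1.54 on average and does not overlap between groups, while Psmb8 over Psmb5 overlaps in all 3.

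In the regulatory particle the calls against monoculture were falls in the filtered, TMM-scaled fit of all 9 libraries. Rises were called in other settings. Psmd11 and Psmc6 rose in MitoPositive cells with total counts and without monoculture D, and Psmc6 rose in MitoNegative cells without monoculture D. Psmd1, the large scaffold subunit also called Rpn2, had 74.3, 78.4 and 74.4 CPM in MitoPositive and 71.1, 72.9 and 66.1 CPM in MitoNegative libraries, against 80.6, 86.9 and 93.3 CPM in monoculture libraries. All 6 co-culture libraries were below the 3 of monoculture. Psmd1 fell by 0.31 on the log2 scale in MitoNegative cells (SE 0.06, adjusted p = 0.00267, edgeR), a call kept in 17 of 17 alternatives, and by 0.20 in MitoPositive cells (SE 0.06, adjusted p = 0.0261). The MitoPositive call was lost without MitoPositive B, MitoPositive D, monoculture C or monoculture D and with no filter on low counts (adjusted p = 0.0507 to 0.096). Without monoculture D the log2 fold change of Psmd1 was -0.14 in MitoPositive and -0.25 in MitoNegative cells (adjusted p = 0.096 and 0.0087).

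Psmd6, a lid subunit also called Rpn7, had 61.2, 63.9 and 61.5 CPM in MitoNegative libraries against 71.0, 69.8 and 76.3 CPM in monoculture libraries. It fell by 0.22 in MitoNegative cells (SE 0.05, adjusted p = 0.00812, edgeR), which 17 of 17 alternatives kept (-0.17 and adjusted p = 0.0265 without monoculture D), and its MitoPositive value was -0.10 (adjusted p = 0.172). Psmd13, another lid subunit, had 92.5, 96.7 and 89.9 CPM in MitoNegative against 100.5, 101.6 and 119.8 CPM in monoculture libraries and fell by 0.20 (adjusted p = 0.0385). Psmc1, an ATPase, had 141, 132 and 123 CPM in MitoNegative against 149.5, 147 and 155 CPM in monoculture libraries and fell by 0.19 (adjusted p = 0.0411). Psmb4, a structural subunit of the core, had 184, 187 and 162 CPM in MitoNegative against 189, 209 and 226 CPM in monoculture libraries and fell by 0.23 (adjusted p = 0.0387). None of these 3 overlaps between the groups. Psmd13 kept its call in 9 and Psmb4 and Psmc1 in 8 of 17 alternatives. All 3 lost it in the fits of only these groups and without MitoPositive C, MitoNegative C, MitoNegative D or monoculture D, where in the last case the values were -0.11, -0.15 and -0.16 for Psmd13, Psmb4 and Psmc1 (adjusted p = 0.141, 0.14 and 0.107). Leaving out MitoPositive B or MitoNegative B also ended the calls on Psmd13 and Psmb4, leaving out monoculture B that on Psmc1, and leaving out monoculture C those on Psmb4 and Psmc1. With no filter on low counts Psmc1 was lost as well. Psmd13 shares 342 exon bases with Sirt3 on the opposite strand.

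Assembly factors gave 1 call in each comparison with monoculture and 0 between MitoPositive and MitoNegative cells in the fit of all 9 libraries. Psmd5, a chaperone of the base of the regulatory particle, had 47.5, 47.4 and 45.7 CPM in MitoPositive against 52.7, 51.4 and 53.9 CPM in monoculture libraries and fell by 0.17 (SE 0.06, adjusted p = 0.0277, edgeR). Its MitoNegative value was -0.05 (adjusted p = 0.5), and 7 of 17 alternatives kept the MitoPositive call. It was lost without any 1 MitoPositive library, MitoNegative C, monoculture B or monoculture D (adjusted p = 0.073 without the last), and with total counts, with no filter and in both fits of only these groups (adjusted p up to 0.108). Psmg4 rose by 0.25 in MitoNegative cells (SE 0.09, adjusted p = 0.0415), against 15.9, 17.2 and 17.9 CPM in monoculture libraries, and 11 of 17 alternatives kept it. Without MitoPositive B, MitoNegative B, MitoNegative C, monoculture B or monoculture C it was lost, as it was in the fit of only these groups with the replicate block (adjusted p = 0.0569), and without monoculture D it was 0.30 (adjusted p = 0.0312).

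The other activators and the inhibitor did not pass in the fit of all 9 libraries, while Psme3 passed between MitoPositive and MitoNegative cells in the fit of only these groups with the replicate block (log2 fold change 0.13, adjusted p = 0.00793, edgeR). Psme3, the activator of nuclear proteasomes, had 182, 182 and 171 CPM in MitoPositive and 170.2, 168 and 153 CPM in MitoNegative libraries, against 168, 182 and 181 CPM in monoculture libraries. Psme4, the activator PA200, had 124, 124 and 134 CPM in MitoPositive and 121, 118 and 119 CPM in MitoNegative libraries, against 126, 121 and 123 CPM in monoculture libraries. Psmf1, which inhibits the core in vitro, had 43.7, 47.1 and 47.8 CPM in MitoPositive and 47.9, 48.8 and 49.0 CPM in MitoNegative libraries, against 46.9, 45.7 and 53.1 CPM in monoculture libraries. Psme3 and Psme4 were higher and Psmf1 was lower in every MitoPositive than in every MitoNegative library, and each overlaps monoculture in MitoPositive cells. The adjusted p-values against monoculture were 0.173 to 0.998 by edgeR.

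By class, calls among the 7 alpha subunits were 0 in all 3 comparisons at an adjusted p of 0.05, and only Psma1, between MitoPositive and MitoNegative cells, had an unadjusted p under 0.05. DESeq2 and limma voom called 0 alpha subunits as well. The fit of only MitoPositive and MitoNegative libraries with the replicate block called 3, Psma1, Psma3 and Psma5 (adjusted p = 0.00748, 0.0262 and 0.038, edgeR). Psma1 also passed between MitoPositive and monoculture cells with total counts and without monoculture D (adjusted p = 0.0384 and 0.037). The 7 constitutive beta subunits all had a negative log2 fold change in MitoNegative cells against monoculture (median -0.13, 1 call), and 5 did in MitoPositive cells (median -0.03, 0 calls). Without monoculture D only 4 of the 7 were negative in MitoNegative cells (median -0.05, 0 calls) and 2 in MitoPositive cells (median 0.04). The alpha subunits had 5 negative values of 7 in MitoNegative cells (median -0.07) and 3 in MitoPositive cells (median 0.02), and without monoculture D 4 (median -0.01) and 2 (median 0.07). Over all genes the medians were 0.01 in MitoNegative and 0.0034 in MitoPositive cells. Of the 11 non-ATPase subunits of the regulatory particle, 3 fell in MitoNegative and 1 in MitoPositive cells, while without monoculture D the calls were 2 falls in MitoNegative cells and 1 rise, of Psmd11, in MitoPositive cells. In MitoPositive cells 3 members were higher and 5 lower than monoculture without overlap, where 27.3% and 24.3% of all genes were. In MitoNegative cells 4 were higher and 8 lower, where 25.9% and 22.9% of all genes were.

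Scaling and the library that stood apart moved the split of these calls. With total counts in place of TMM, 5 members were higher and 1 lower in MitoPositive cells, in place of 1 and 2, and Psme2, Psmd11, Psmc6 and Psma1 joined Psmb9 while Psmd5 no longer passed. In MitoNegative cells 3 were higher and 8 lower under total counts, in place of 3 and 5. Without monoculture D, 4 members were higher and 0 lower in MitoPositive cells and 4 higher and 2 lower in MitoNegative cells. With total counts 13% of the members passed in MitoPositive and 23.9% in MitoNegative cells, where 41.7% and 38.3% of all genes did. Without monoculture D 8.7% and 13% of the members passed, where 41.7% and 37.6% of all genes did.

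Genes that serve the proteasome or its products were counted for comparison, in lists chosen with earlier results of these data known. Of the 50 measured genes of the 5 lists 0 passed between MitoPositive and MitoNegative cells by edgeR. An unadjusted p under 0.05 was seen for 7 of them, and for 1646 of all 15711 genes. With DESeq2 there were 2 calls, Irf2 and Nfe2l2, where 3.22% of all genes passed, and with limma voom 0, where 0.21% did. The replicate block in the fit of all 9 libraries gave 1, Nfe2l2 (log2 fold change -0.29), where 2.34% of all genes passed. With the block in the fit of only these groups, on 2 residual degrees of freedom, there were 16, where 18.2% of all genes passed. Against monoculture, where pairs of values give MitoPositive cells first and MitoNegative cells second, the genes of MHC class I loading gave 6 rises and 0 falls among 12 in MitoPositive cells and 4 rises and 0 falls in MitoNegative cells. These calls are 50% and 33.3% of the list, where 42.2% and 38.9% of all genes passed. Tap1 had 628, 630.5 and 642 CPM in MitoPositive and 639, 631 and 619 CPM in MitoNegative libraries, against 448, 457 and 497 CPM in monoculture libraries. It rose by 0.44 and 0.43 (SE 0.06 each, adjusted p = 0.000178 and 0.000263, edgeR). Tap2, the other transporter chain, rose by 0.28 in both, and the peptide editor Tapbpl by 0.40 and 0.52. Tapbp, or tapasin, rose by 0.24 and 0.32, and H2-D1, a class I heavy chain, rose by 0.28 in MitoPositive cells. B2m, the light chain of class I, did not pass (0.09 and 0.19, adjusted p = 0.476 and 0.127), nor did Nlrc5, the class I transactivator (0.12 and 0.08, adjusted p = 0.355 and 0.566).

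Of 10 genes of the interferon gamma axis, 4 rose and 2 fell in MitoPositive cells and 5 rose and 1 fell in MitoNegative cells. That is 60% of the list in each, where 42.2% and 38.9% of all genes passed. Ifng, the cytokine itself, had 149, 207 and 70.9 CPM in MitoPositive and 72.6, 87.5 and 53.7 CPM in MitoNegative libraries, against 5.23, 3.46 and 3.43 CPM in monoculture libraries. It rose by 5.14 ± 0.50 and 4.14 ± 0.48 (log2, SE, adjusted p = 0.000251 and 0.000749, edgeR). Cd274, which encodes PD-L1, rose by 1.27 and 1.34, Socs1, a feedback inhibitor, by 0.59 and 0.66, and the receptor chain Ifngr1 by 0.66 and 0.44. Irf1, a transcription factor that interferon gamma induces, did not pass (-0.05 and 0.21, adjusted p = 0.704 and 0.0936). The falls, named after their values were seen, were Jak1, a receptor kinase, by 0.45 and 0.33 and Irf2, a repressor related to Irf1, by 0.26 in MitoPositive cells.

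The Nrf1 pathway, which raises proteasome transcription when proteasome activity falls, gave 4 rises and 1 fall among 7 genes in MitoPositive cells. In MitoNegative cells it gave 5 rises and 1 fall. These are 71.4% and 85.7% of a short list chosen with results known, where 42.2% and 38.9% of all genes passed. Nfe2l1, which encodes Nrf1, had 135, 146 and 127 CPM in MitoPositive and 136, 139 and 123 CPM in MitoNegative libraries, against 113, 114 and 112 CPM in monoculture libraries. It rose by 0.27 and 0.23 (SE 0.07 each, adjusted p = 0.00583 and 0.0152, edgeR). Of its small Maf partners, Maff rose by 1.29 and 1.44 and Mafg by 0.81 and 0.72. Nfe2l2, a related factor, rose by 0.22 and 0.51. Ddi2, the protease that activates Nrf1, fell by 0.32 and 0.22.

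Among 15 other subunits and cofactors, 5 rose and 2 fell in MitoPositive cells and 5 rose and 1 fell in MitoNegative cells. These 46.7% and 40% are near the 42.2% and 38.9% of all genes that passed. The proteasome-bound deubiquitinases Usp14 and Uchl5 rose by 0.39 and 0.37 in MitoPositive and by 0.30 and 0.31 in MitoNegative cells. Vcp, the unfoldase that hands substrates to the proteasome, fell by 0.28 and 0.26, and the shuttle Ubqln2 fell by 0.41 in MitoPositive cells. Txnl1, a thioredoxin bound to the regulatory particle, rose by 0.20 in MitoNegative cells. Pomp, the chaperone of core assembly, had log2 fold changes of -0.07 and -0.17 (adjusted p = 0.482 and 0.0789, edgeR). Of 6 genes of ubiquitin and its activating enzymes, Uba1 rose by 0.41 in MitoPositive and 0.22 in MitoNegative cells, Uba6 fell by 0.22 in MitoNegative cells, and the 4 ubiquitin genes did not pass. That is 16.7% and 33.3% of the list.

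**Figure D4:**
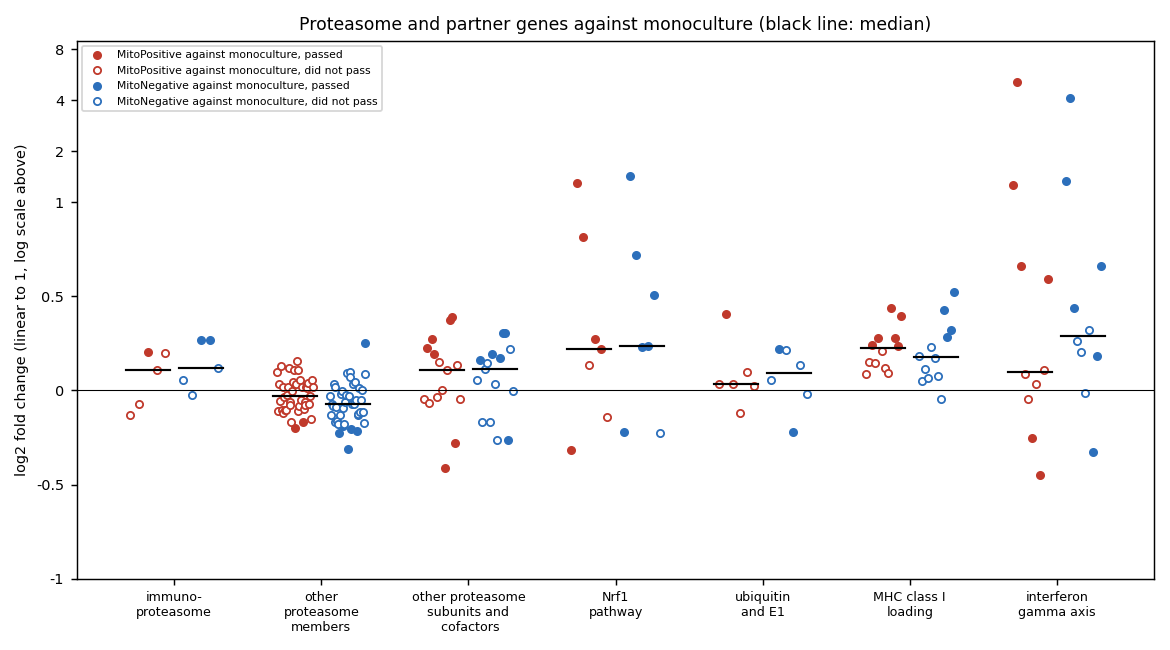
Log2 fold change against monoculture of the immunoproteasome genes, the other measured proteasome members and 5 lists of partner genes, with MitoPositive in red on the left and MitoNegative in blue on the right of each pair, filled points for an adjusted p under 0.05 and black lines for medians (axis linear to 1 and logarithmic above). The proteasome members lie between -0.31 and 0.27, Ifng at 5.14 and 4.14.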

How the data were processed

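RNA-seq of 9 libraries was analysed, 3 each of MitoPositive, MitoNegative and monoculture CD8+ T cells. The authors deposited raw counts per gene, with gene coordinates and exon length. Per the submitters' processing notes, bcl2fastq, cutadapt, STAR 2.7, featureCounts and DESeq2 were used with GRCm38. The strand setting was not given in the sources used here. The gene coordinates equalled those of GENCODE M21 for 48 of 48 members.

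Counts of 55421 genes (spike-in entries, at 0 counts, left out) were filtered with filterByExpr (minimum count 10, minimum total 15), which kept 15711 genes and at least 99.96% of counts. They were scaled by TMM and tested with edgeR 4.0.16 in R 4.3.3 (quasi-likelihood, robust, all 9 libraries, 6 residual degrees of freedom), with Benjamini-Hochberg adjustment over the tested genes and a threshold of 0.05. CPM are counts over the TMM-scaled library size and RPKM the same per kilobase of exon. Depth was 53546152 to 74722832 counts, and intervals at 0 counts cover counting error only. The script was tested on simulated data. Alternatives were DESeq2 1.42.0, limma 3.58.1 (voom), other scalings, no filter, the replicate block, only the groups compared, and each library left out.

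The members, gene lists, markers and motifs were chosen with earlier results of these data known. Named were the immunoproteasome genes, their counterparts, the other activators and the inhibitor, members below the filter, up to 8 further called members per comparison, Psma1 and Psmg4 by unadjusted p between the co-cultured groups (chosen after their values were seen), and, per partner list and comparison, up to 4 called genes plus Nfe2l1, Pomp, Irf1, Nlrc5, Tap1 and B2m. Residuals of libraries with the same letter correlated by 0.339 to 0.459 between MitoPositive and MitoNegative cells and by 0.111 to 0.213 between MitoNegative and monoculture cells, so the letters were taken to pair these. Between MitoPositive and monoculture cells they correlated by 0.248, 0.0521 and 0.163 for B, C and D. As 1 letter was below the cutoff of 0.1, the letters were not taken to pair them. The block in the fit of all 9 libraries still joins the letters of all 3 groups. Block results for MitoPositive against monoculture cells therefore assume a pairing that did not meet this cutoff. A gene of the interferon gamma axis is not reported here.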

Additional observations from a re-analysis of the deposited data

How the results depend on the processing

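Alternatives were counted for the immunoproteasome genes, their counterparts, the other activators, the inhibitor and, per comparison, the further called members. Of their log2 fold changes 608 kept direction and side of the threshold, 55 lost the call, 12 gained one and 25 turned sign, all of the last in genes without a call. Psma1 and Psmg4 between MitoPositive and MitoNegative cells are not in this count. Of all genes 26 passed between MitoPositive and MitoNegative cells, and the count was 418 with DESeq2, 15 with DESeq2 size factors, 14 with total counts (10 higher and 4 lower, in place of 14 and 12), 33 with limma voom (25 and 8), 171 with no filter, 367 with the replicate block, 65 with only these groups, 2810 with only these groups and the replicate block, and 1 to 120 leaving out 1 library. The members called were 16 in place of 0 there with only these groups and the replicate block, where 18.2% of all genes passed. Between MitoPositive and monoculture cells they were 6 with total counts and 5 with the replicate block in place of 3, and 0 to 5 leaving out 1 library. Of all genes 41.7%, 47.8% and 34.1% to 41.7% passed in these fits, in place of 42.2%. Between MitoNegative and monoculture cells they were 5 with only these groups, 3 with the replicate block added, and 4 to 8 leaving out 1 library, in place of 8. Of all genes 35.5%, 36.8% and 30.8% to 37.6% passed in these fits, in place of 38.9%. With DESeq2, its size factors, total counts and the replicate block 10, 9, 11 and 9 members passed. The shares of all genes there were 40.1%, 38.9%, 38.3% and 44.9%. In the fit of all 9 libraries the replicate block joins the libraries of all 3 groups by letter. Between MitoNegative and monoculture cells it added Psmc3 (adjusted p = 0.0382 in place of 0.0512, edgeR) and ended no call. Leaving out 1 library, log2 fold changes ran from -0.0848 to 0.0513 for Psmb5, -0.0260 to 0.0746 for Psmb6, -0.0255 to 0.0405 for Psme3 and -0.116 to 0.00738 for Psmf1 in MitoPositive against monoculture cells. They ran from -0.0650 to 0.0344 for Psmb6, -0.0624 to 0.0782 for Psmb7, -0.0726 to 0.0433 for Psmb8 and -0.0435 to 0.0792 for Psmf1 in MitoNegative against monoculture cells, and from -0.117 to 0.0127 for Psmb8 between the co-cultured groups. Psmb5 was 0.0109 with total counts in MitoPositive cells. In MitoNegative cells Psmb7 was 0.0156 with total counts, 0.00544 with no filter and 0.00248 with only these groups, and Psmf1 was -0.00447 with DESeq2 and with its size factors. Adding Psme2b to Psme2 was chosen after seeing the data, as was leaving out libraries for the class sums. The cause of these changes was not tested. Depth was ample for all members but Psma8 and Psmb11, and 3 libraries a group set the precision.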
